A study of Mus musculus with 13 samples.

Results

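Tracheas dissected at E11.5 from *Foxg1Cre;Gli3TFlag/+* mouse embryos were compared with foreguts dissected at E10.5 from embryos of the same genotype, to describe how the mutant tissue differed between the 2 embryonic days. The groups were chosen by the tissue, stage and genotype labels alone, and they held 7 of the 13 bulk RNA-seq libraries of the series, 4 mutant tracheas and 3 mutant foreguts. Every embryo in both groups carried *Foxg1Cre*, which recombines in the endoderm and mesoderm of the foregut, and a single copy of *Gli3TFlag*, a Flag-tagged allele that yields a truncated Gli3 acting as a constitutive repressor of Hedgehog (HH) target genes once Cre has acted. The 3 control tracheas and 3 control foreguts, which are *Gli3TFlag/+* without Cre, were used only to place a control value beside a mutant value. The strain label is C57BL/6, whereas the description of the mice gives an outbred background. Whole dissected tissue was sequenced, so cells in which Cre was not active also gave RNA. Since the later stage was always trachea, the earlier stage was always foregut, and the 2 stages were sequenced to different depths and deposited in separate tables, embryonic day, dissected tissue and sequencing set cannot be told apart in any difference below. In bulk tissue, fewer cells of a type and less RNA per cell cannot be told apart either.

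The mutant trachea libraries held about 9646700 to 15916400 counts and the mutant foregut libraries 15366100 to 17023900. Levels are given as CPM, the counts scaled to a common library size by TMM factors. Correlations of log2 CPM were 0.958 to 0.978 among the tracheas, 0.961 to 0.979 among the foreguts and 0.925 to 0.959 between them. Female embryos, as read from *Xist*, made up 2 of the 4 tracheas and 2 of the 3 foreguts. A few libraries stood apart in cells of other types. Over the neural crest and neuron markers the tracheas had a summed CPM of 674 to 749, and the foreguts 374, 541 and, in foregut replicate 3, 3062. Replicate 2 of each tissue was rich in heart muscle RNA, with a summed CPM of 5752 in trachea replicate 2 and 1278 to 1518 in the other tracheas, and of 2682 in foregut replicate 2 and 397 and 568 in the other foreguts. Expression of *Gli3* itself, a check on the transgene that these tables cannot separate from the endogenous gene, was 429.6, 369.5, 398 and 396 CPM in the mutant tracheas and 325, 319.7 and 349 CPM in the mutant foreguts, a difference that did not pass the test (log2 fold change 0.27, edgeR adjusted p = 0.0616).

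In the mouse, the trachea separates from the ventral foregut around these stages. The respiratory epithelium is marked by the transcription factor Nkx2-1, while the surrounding splanchnic mesoderm, which receives HH ligand from the epithelium, gives rise to the tracheal cartilage ventrally and to the trachealis smooth muscle dorsally. The Lin28 proteins and the let-7 microRNAs form an opposing pair that times the passage of embryonic tissues from early to later states, Lin28 blocking the maturation of let-7 and let-7 repressing the *Lin28* transcripts.

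Of 15531 genes tested, 446 (2.87%) were at least 2-fold higher and 204 (1.31%) at least 2-fold lower in mutant trachea than in mutant foregut at an edgeR adjusted p of at most 0.05. Without a limit on fold change, 1177 genes (7.58%) rose and 883 (5.69%) fell at an adjusted p under 0.05, and these percentages are the background for the members of each gene group described here. The median log2 fold change over all tested genes was -0.01. Counts of changed genes depended on single libraries: leaving out foregut replicate 1 left 280 higher genes, and leaving out trachea replicate 1 left 129 lower genes. Genes were ranked by fold change among those that passed, did not overlap between the groups and averaged 3 or more on the log2 CPM scale. The 12 largest rises in that ranking included *Myh11*, *Actg2*, *Nfix*, *Cldn18*, *Col6a3* and *Col8a1*, and the 12 largest falls included *Hand1*, *Arg1* and *Lin28a*.

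**Figure D1:**
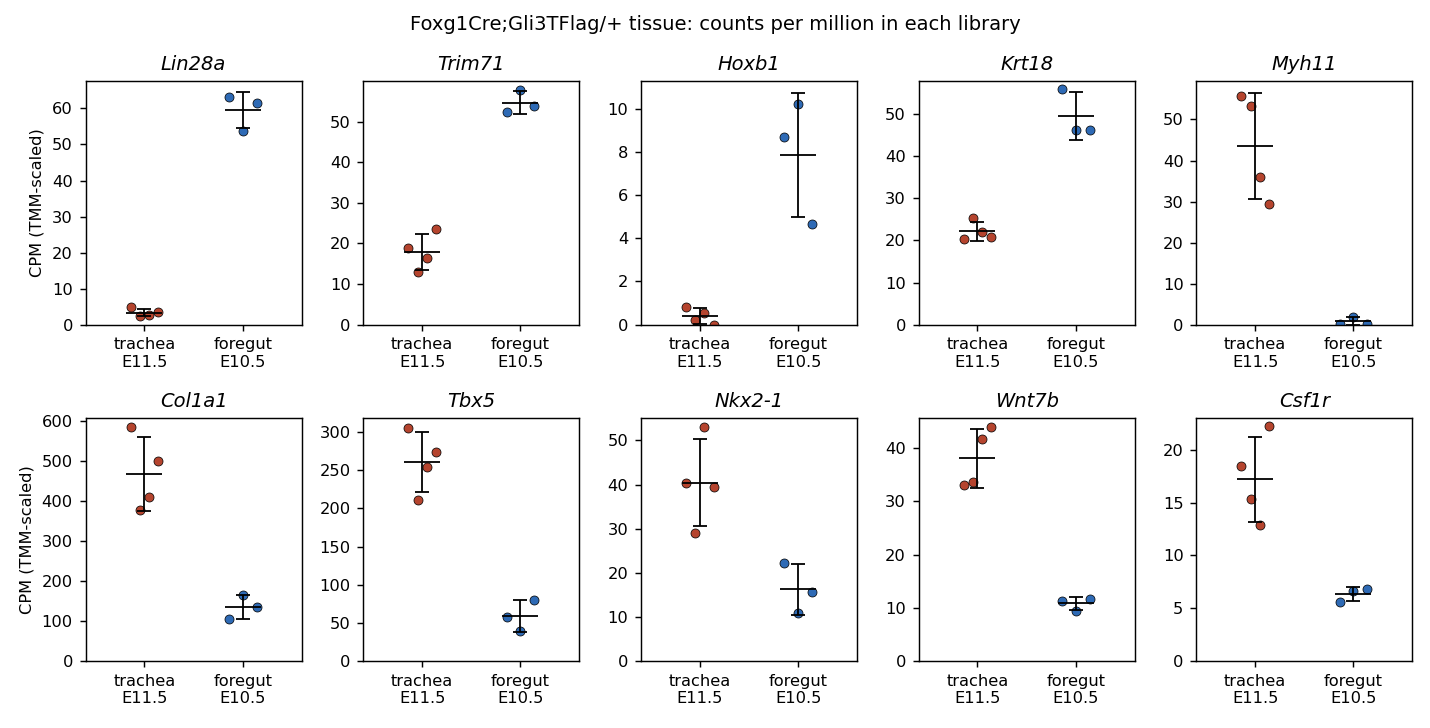
TMM-scaled CPM of 10 genes in each library, with mutant E11.5 tracheas (red, n = 4) left of mutant E10.5 foreguts (blue, n = 3). Lines and bars give the mean and SD, each axis starts at 0, and the 2 groups do not overlap for any of the 10 genes.

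Of the genes known for keeping embryonic tissue in an early state, most of those that changed were lower in mutant trachea. The group held RNA-binding proteins of the Lin28 and Igf2bp families, the let-7 target *Trim71*, the Arid3 and Sall transcription factors and DNA methyltransferases. Of 19 members tested, 10 fell, 3 rose and 6 did not pass, with a median log2 fold change of -0.45. *Lin28a* (GRCm38 chromosome 4, 134003330 to 134018841, minus strand), which encodes the RNA-binding protein that blocks let-7 maturation, stood at 4.79, 2.5, 2.8 and 3.44 CPM in the mutant tracheas and 63.1, 53.8 and 61.6 CPM in the mutant foreguts. Every trachea was below every foregut, and the fold change on the log2 scale was -4.14 ± 0.20 (standard error, edgeR adjusted p = 1.8e-05). Its paralogue *Lin28b* (chromosome 10, 45376620 to 45486395, minus strand) was at 36.5, 28.8, 35.2 and 32.9 CPM in trachea and 88.3, 78.4 and 78.7 CPM in foregut. That was a smaller difference, of -1.29 ± 0.10 (adjusted p = 0.000151).

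Other members of the group fell by intermediate amounts. *Sall4*, a zinc-finger factor of early embryonic cells, was at 13.2, 17.3, 14.7 and 15.5 CPM in mutant trachea and 64.8, 75.6 and 47 CPM in mutant foregut (log2 fold change -2.04, edgeR adjusted p = 0.000155). *Trim71*, an RNA-binding ubiquitin ligase of early development, had 18.8, 12.9, 16.4 and 23.6 CPM in trachea and 52.3, 57.7 and 53.8 CPM in foregut (-1.62, adjusted p = 0.000641). For neither gene did the groups overlap. *Sall1* fell by 2.47, *Arid3b* by 1.28, *Arid3a* by 1.07, *Dnmt3b* by 0.58 and *Igf2bp1*, an mRNA-stabilising protein, by 0.47 on the log2 scale. *Igf2bp3* fell by only 0.27, and its call was lost in 6 of 7 fits that each left out a library (adjusted p up to 0.145, without foregut replicate 1). The call of *Dnmt3b* was lost without foregut replicate 2 (adjusted p = 0.0511). Not all of the group moved this way. *Hmga2*, a chromatin protein repressed by let-7 in many tissues, was at 1272, 994, 1206 and 1478 CPM in trachea and 847, 746 and 798 CPM in foregut and rose (0.63, adjusted p = 0.0149, and 0.0532 without foregut replicate 2). *Zfp462* and the methyltransferase *Dnmt3a* rose by 0.39 and 0.42, calls that were lost without foregut replicate 1 (adjusted p of 0.0568 and 0.0939), so that 1 member rose in that fit. The call of *Dnmt3a* was lost in 4 of 7 fits without a library. *Mycn* (-0.19) did not pass. *Hmga1* (-0.45) did not pass either, but the split of its reads with a near-identical copy is uncertain, as given with *Hmga1b* below.

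let-7 microRNAs were not measured, since the assay does not capture mature microRNAs. Their sequences are shown because the group was assembled around the Lin28 and let-7 circuit, so matches to let-7 among its members are partly built in. In the RefSeq table for GRCm38.p6 all 9 mature let-7 and miR-98 forms share 1 seed, bases 2 to 8, given here in capitals.
let-7a-5p: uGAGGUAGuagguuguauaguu
let-7c-5p: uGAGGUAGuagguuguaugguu
let-7g-5p: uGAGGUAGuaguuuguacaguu
let-7i-5p: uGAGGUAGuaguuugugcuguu
miR-98-5p: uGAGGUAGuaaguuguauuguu

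The complement of that seed, CTACCTC, was searched on the sense strand of the longest annotated 3′ UTR of each tested gene (GENCODE M21, GRCm38). It was present in 1441 of 13468 such UTRs (10.7%), and in 11 of the 19 tested members of the group. Among the members that fell it was found in 8 of 10, among those that rose in 1 of 3, and among those that did not pass in 2 of 6. Median 3′ UTR length was 2467.5, 3014 and 1048 bases in these sets, against 1232 over all tested genes. The part of UTR length in these shares was not tested. *Lin28b*, *Trim71*, *Igf2bp1* and *Hmga2* held 4 matches each, *Lin28a* and *Arid3a* 2 each, and 5 members, *Sall4*, *Arid3b*, *Igf2bp3* and *Hmga1* among them, 1 each. Matches are capitalised in the sites below, which are written 5′ to 3′ on the transcript strand, and a match is a description of the letters and not of a functional site.
Lin28a, chr4:134005189-134005211, minus strand: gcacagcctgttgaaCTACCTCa
Lin28a, chr4:134004551-134004573, minus strand: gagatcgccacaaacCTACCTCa
Lin28b, chr10:45381022-45381044, minus strand: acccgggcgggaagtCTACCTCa
Trim71, chr9:114512472-114512494, minus strand: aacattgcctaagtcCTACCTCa
Trim71, chr9:114512376-114512398, minus strand: agtgataatttctatCTACCTCa
Igf2bp1, chr11:95961778-95961800, minus strand: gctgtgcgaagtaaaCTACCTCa
Sall4, chr2:168748940-168748962, minus strand: agggctttaatttatCTACCTCa
Hmga2, chr10:120364224-120364246, minus strand: gccgacattcaatttCTACCTCa

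*Hmga2*, which rose, held as many matches as *Trim71*, which fell. Over all tested genes with an annotated 3′ UTR, 749 of 12027 genes without a match fell (6.23%), 68 of 1257 with 1 match (5.41%), 11 of 156 with 2 (7.05%) and 7 of 28 with 3 or more (25%). That last class held 4 members of the group, which supplied 3 of its 7 falls. The median log2 fold change in these classes was -0.02, 0.03, 0.03 and -0.04. The median 3′ UTR length differed between the classes, at 1121, 2256, 3500.5 and 4459.5 bases, and its part in these counts was not tested. The same 19 genes in the control libraries gave 11 lower and 0 higher in control trachea than in control foregut, against 1453 of 15247 genes lower overall (9.53%). *Lin28a* differed by -3.11 and *Trim71* by -2.26 on the log2 scale between the control tissues (edgeR adjusted p of 0.00111 and 0.000481).

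**Figure D2:**
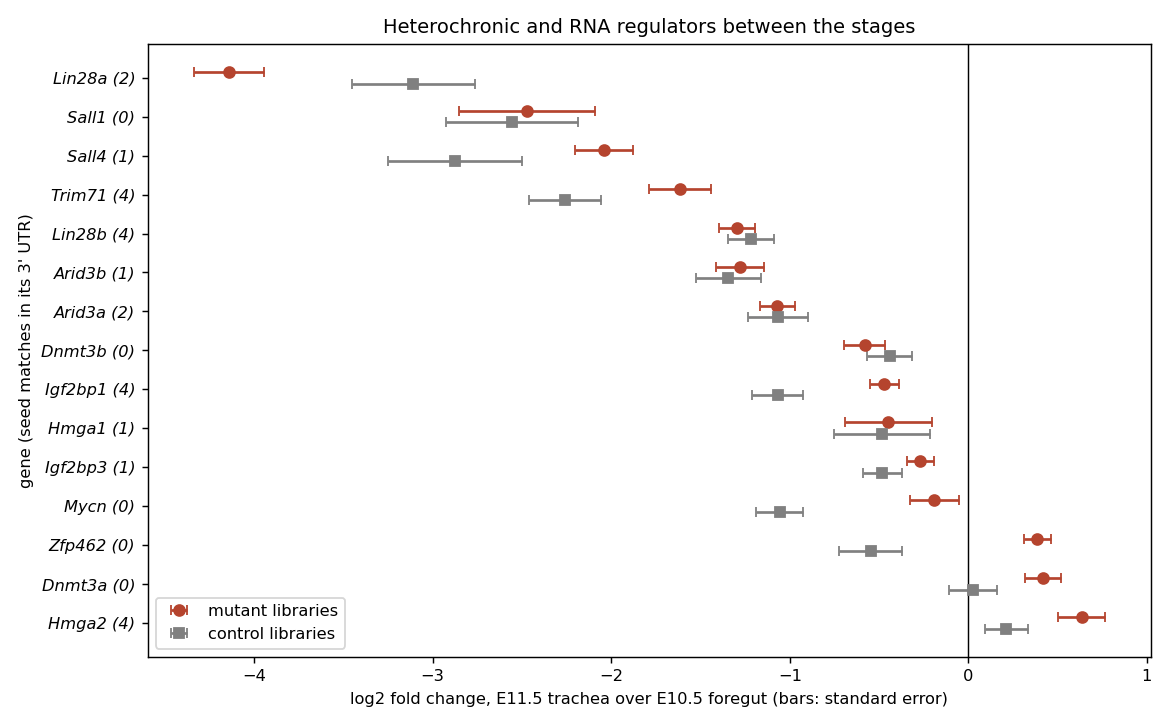
Log2 fold change of E11.5 trachea over E10.5 foregut for 15 of the 19 tested members of the heterochronic and RNA-regulator group, in mutant libraries (red circles) above control libraries (grey squares), with standard errors. *Dnd1*, *Igf2bp2*, *L1td1* and *Tet1*, which did not pass in the mutants, are not drawn. The number beside each gene counts CTACCTC matches in its 3′ UTR. Among the genes drawn, *Lin28a* lies farthest to the left in the mutants at -4.14, and *Hmga2* farthest to the right at 0.63.

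Contractile genes of smooth muscle headed the ranking of rises. *Myh11*, the smooth muscle myosin heavy chain (chromosome 16, 14194535 to 14291372, minus strand), was at 55.7, 53.3, 35.9 and 29.5 CPM in the mutant tracheas and at 0.173, 1.92 and 0.284 CPM in the mutant foreguts. All tracheas were far above all foreguts, with a log2 fold change of 5.83 ± 0.57 (edgeR adjusted p = 0.000427). *Actg2*, the enteric smooth muscle actin (chromosome 6, 83512905 to 83536265, minus strand), had 67.1, 50.3, 35.1 and 31.5 CPM in trachea and 0.115, 3 and 0.567 CPM in foregut (5.27 ± 0.65, adjusted p = 0.0014). *Mylk*, the myosin light chain kinase that triggers contraction, had 96.9, 80.2, 68.1 and 76.2 CPM in trachea and 15, 13.9 and 12.2 CPM in foregut (2.55 ± 0.14, adjusted p = 3.57e-05). *Myocd*, the coactivator of serum response factor that drives the smooth muscle programme, rose by 1.93 (adjusted p = 0.0117, and 0.053 without foregut replicate 1), *Mrvi1* by 1.99 and *Tpm2* by 0.88 (0.079 without foregut replicate 1).

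These 6 were the members that rose among 18 smooth muscle genes tested, none fell, and the median log2 fold change was 0.95. Several classical markers did not pass, and in these foregut replicate 2 lay within or above the range of the tracheas. *Acta2*, smooth muscle alpha actin, was at 288, 287, 219 and 175 CPM in trachea and 33.3, 313 and 10.6 CPM in foregut (1.03, edgeR adjusted p = 0.463). *Tagln* was at 23.8, 26.2, 24.9 and 27.4 CPM in trachea and 7.94, 39.2 and 6.52 CPM in foregut, and *Cnn1* at 48.3, 69.2, 32.1 and 27.6 CPM in trachea and 3.05, 29.2 and 2.61 CPM in foregut. Without foregut replicate 2, 10 of the 18 members rose. That foregut was also the one rich in heart muscle RNA, whose cells share some of these genes at this age, and the part of that tissue in the smooth muscle values was not tested. *Myh11* and *Actg2* in foregut replicate 2 were 1.92 and 3.0 CPM, still below every mutant trachea. Between the control tissues 10 of the same 18 genes rose and 2 fell, with a median of 1.28. Over all genes tested in the controls 11.4% rose and 9.53% fell.

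Most collagens rose. Of 24 collagen genes tested, 17 rose and none fell, with a median log2 fold change of 1.10. *Col1a1* and *Col1a2*, the chains of type I collagen, were at 584, 378, 411 and 499 CPM and 724, 561, 562 and 642 CPM in the tracheas, and at 105, 165 and 136 CPM and 176, 213 and 189 CPM in the foreguts. The rises were 1.79 ± 0.19 and 1.69 ± 0.12 on the log2 scale, with edgeR adjusted p of 0.00062 and 9.46e-05. The type VI chains, which form beaded microfibrils around cells, rose more: *Col6a1* by 2.09, *Col6a2* by 2.08 and *Col6a3* by 3.25. *Col6a3* was at 31.6, 29.8, 18.2 and 26.2 CPM in trachea and 2.7, 1.79 and 3.8 CPM in foregut, with no overlap (adjusted p = 0.000229). *Col8a1* had 29.3, 26.1, 26.5 and 40.3 CPM in trachea and 2.76, 4.09 and 2.84 CPM in foregut (3.24, adjusted p = 8.94e-05). *Col3a1*, *Col5a2* and *Col14a1* rose by 1.26, 1.24 and 1.65. *Col4a4* also rose, at low counts (2.51, 1.71, 1.43 and 1.89 CPM in trachea and 0.288, 0 and 0.113 CPM in foregut). *Col18a1*, a basement membrane collagen, differed by -0.22 and did not pass (adjusted p = 0.301). The control tissues gave 11 of 23 collagen genes higher and 1 lower, with a median of 0.56.

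Among 37 matrix glycoproteins and proteoglycans, 15 rose and 1 fell, with a median of 0.58. *Lox*, which crosslinks collagen and elastin, was at 107, 82.6, 76.4 and 98.9 CPM in mutant trachea and 9.32, 10.6 and 22.8 CPM in mutant foregut (2.67 ± 0.29, edgeR adjusted p = 0.000787). *Thbs2* (2.58), *Ogn* (3.07), *Bgn* (1.37), *Lama4* (1.34), *Sparc* (1.05) and *Fbn2* (0.99) also rose, with adjusted p between 8.14e-05 and 0.00347. The single member that fell was *Npnt*, an integrin ligand of basement membranes, at 66.4, 65.5, 66.9 and 59 CPM in trachea and 118, 103 and 95.1 CPM in foregut (-0.70, adjusted p = 0.00194). *Eln*, elastin, was low in both tissues and did not pass (0.34). It was at 8.74, 7.92, 7.71 and 8.43 CPM in trachea and 3.34, 12.4 and 3.69 CPM in foregut, with only foregut replicate 2 above the tracheas. With replicate 2 of both tissues left out *Eln* rose by 1.24 (edgeR adjusted p = 0.0297). Without foregut replicate 1 only 9 matrix members rose, while 14 collagens did. The protease *Fap* and the serine protease-like gene *Prss35*, both among the 12 largest rises of the ranking, had 17.3, 20.8, 13.2 and 11.1 CPM and 23.2, 10.8, 14.9 and 12.5 CPM in trachea, against 2.82, 0.511 and 4.14 CPM and 1.5, 1.98 and 1.48 CPM in foregut. Of the 37 matrix genes, 14 rose and 2 fell between the control tissues, with a median of 0.34.

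Ligands and regulators of TGF-beta signalling, which induces many matrix genes, were higher too. Of 13 members tested 7 rose and none fell, with a median of 0.70. *Tgfb2* was at 237, 219, 225 and 266 CPM in trachea and 96.8, 133 and 108 CPM in foregut (1.07 ± 0.12, edgeR adjusted p = 0.000835). *Tgfb3* rose by 1.35, the receptor *Tgfbr2* by 0.70 and *Inhba*, the activin A subunit, by 2.04. The latent TGF-beta binding proteins, which store the ligand in the matrix, followed, with rises of 1.18 for *Ltbp1*, 1.42 for *Ltbp3* and 1.05 for *Ltbp4*, the last lost without foregut replicate 1 (adjusted p = 0.0594). Between the control tissues 7 of the same 13 members rose and none fell, with a median of 0.69.

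**Figure D3:**
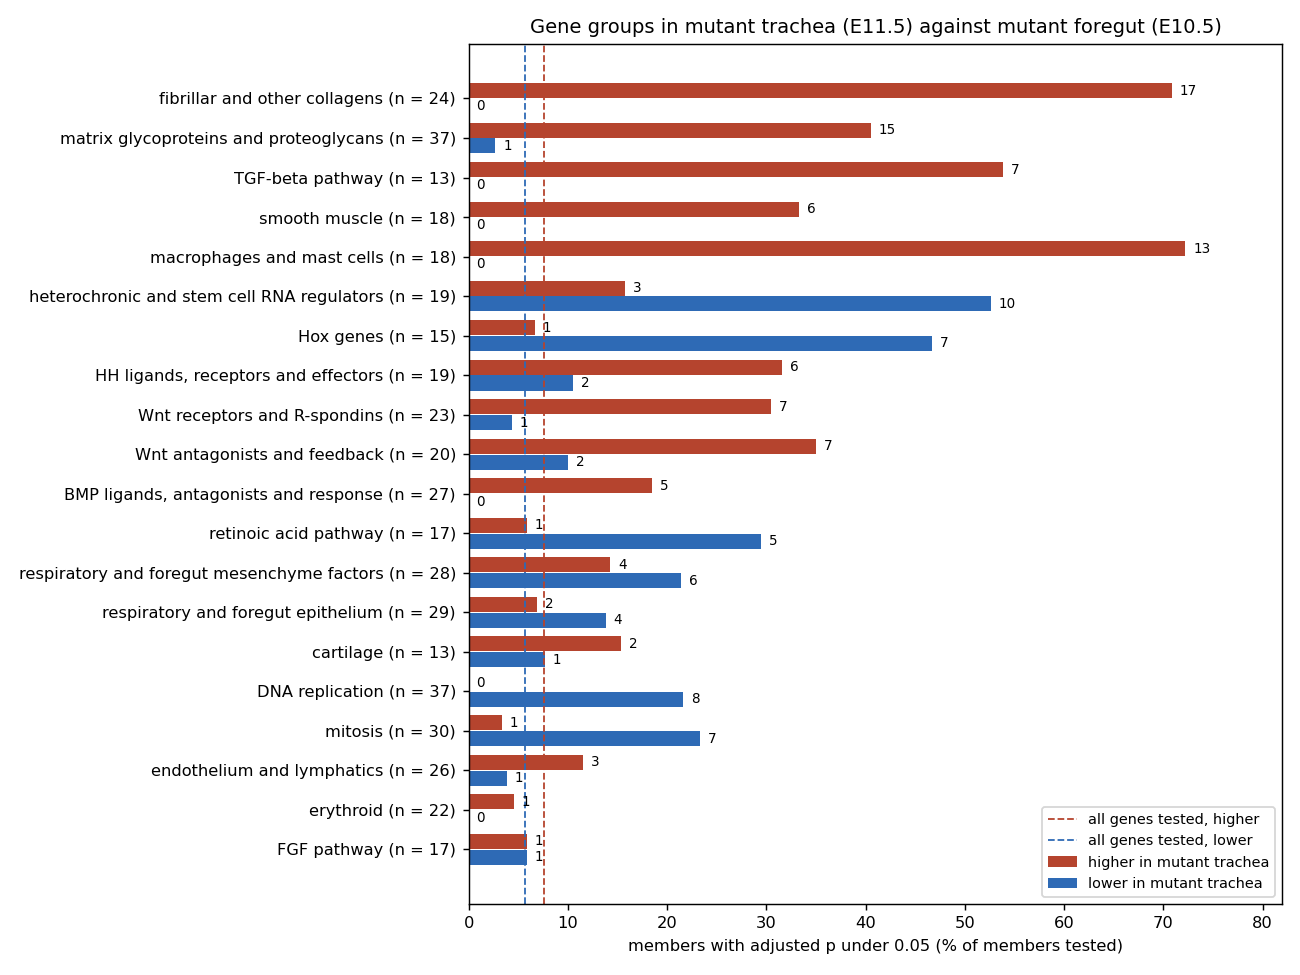
Share of the tested members of 20 gene groups that were higher (red) or lower (blue) in mutant E11.5 trachea than in mutant E10.5 foregut at an edgeR adjusted p under 0.05, with the number of members beside each bar. Dashed lines mark the shares over all genes tested, 7.58% higher and 5.69% lower. Collagens (17 of 24) and macrophage markers (13 of 18) have the longest red bars, and the heterochronic group (10 of 19) and Hox genes (7 of 15) the longest blue bars.

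Of 29 respiratory and foregut epithelial genes, *Nkx2-1* and *Foxp2* rose, a share near that of all genes. *Nkx2-1*, which specifies respiratory and thyroid endoderm (chromosome 12, 56531958 to 56536908, minus strand), was at 40.3, 29.1, 53 and 39.4 CPM in the mutant tracheas and 22.3, 10.9 and 15.8 CPM in the mutant foreguts. The groups did not overlap (1.31 ± 0.26, edgeR adjusted p = 0.0116). *Wnt7b*, a ligand made by the respiratory epithelium, had 33.1, 33.6, 41.6 and 43.9 CPM in trachea and 11.3, 9.53 and 11.7 CPM in foregut (1.81, adjusted p = 0.000161). *Cldn18*, a tight junction protein of lung and stomach epithelium, had 14.8, 8.14, 14.9 and 16.7 CPM in trachea and 0.748, 0.448 and 1.65 CPM in foregut (3.82, adjusted p = 0.000835). *Foxp2* rose by 0.65 (adjusted p = 0.000872). *Wnt7b* and *Cldn18* were not on the epithelial list. Of 8 distal lung genes tested 1 rose and 2 fell, with a median of -0.16, and none fell without foregut replicate 1 or 2 or trachea replicate 1, while none rose without any 1 of the foreguts or trachea replicate 1 or 3.

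On the epithelial list 4 of the 29 members fell, and the median was -0.31. The simple-epithelium keratins *Krt8* and *Krt18* were at 12.8, 16.8, 15.8 and 12.4 CPM and 20.2, 25.3, 22 and 20.8 CPM in trachea, and at 32.9, 24.2 and 28.8 CPM and 55.9, 46 and 46.2 CPM in foregut. They fell by 0.98 and 1.16 (edgeR adjusted p of 0.00461 and 0.000454). *Foxp4* fell by 0.49 and *Foxa1* by 0.72, the second call lost in 4 of 7 fits without a library (adjusted p up to 0.121, without foregut replicate 1). The cell adhesion marker *Epcam* was at 56.6, 75.8, 57.9 and 55 CPM in trachea and 89.4, 71.3 and 81.3 CPM in foregut, where trachea replicate 2 alone lay within the foregut range (-0.39, adjusted p = 0.072). Without trachea replicate 2, 12 of the 29 epithelial members fell. *Sox2* (-0.23) and *Foxa2* (-0.25), factors of the foregut endoderm, did not pass. In the control libraries 18 of the same 29 genes fell and 2 rose, with a median of -1.23, and no member passed the test of a difference between genotypes.

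In the mesoderm the T-box factors of the respiratory field stood out. *Tbx5* (chromosome 5, 119832668 to 119885219, plus strand) was at 305, 211, 254 and 274 CPM in trachea and 58.7, 39.3 and 80.2 CPM in foregut (2.14 ± 0.23, edgeR adjusted p = 0.000586). *Tbx4* (chromosome 11, 85886422 to 85916097, plus strand) was at 41.4, 19.4, 37.4 and 37.1 CPM in trachea and 8.57, 5.88 and 8.79 CPM in foregut (2.12 ± 0.27, adjusted p = 0.00158). Both factors mark lung and tracheal mesenchyme, and neither gene's groups overlapped. *Tbx2* rose by 0.91 and *Osr2* by 3.87. *Osr2* was barely detected in the foreguts (0.288, 0 and 0.17 CPM).

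Other mesodermal factors fell. *Isl1*, a factor of second heart field and foregut mesoderm, was at 8.9, 16.1, 6.9 and 9.09 CPM in trachea and 25.9, 40.5 and 28.4 CPM in foregut (-1.62, edgeR adjusted p = 0.00617). *Hand1* was at 0.076, 0.286, 0.808 and 1.44 CPM in trachea and 9.03, 91.9 and 2.44 CPM in foregut, so its large fold (-5.81) rested chiefly on foregut replicate 2, and the call was lost without trachea replicate 1 (adjusted p = 0.0556). *Hand2* fell by 1.25, a call lost in 6 of 7 fits without a library (adjusted p up to 0.0913, without trachea replicate 1), and *Meis2* by 0.35 (up to 0.13, without foregut replicate 1). Over the 28 tested mesenchymal factors 4 rose and 6 fell, and the median was -0.01. Without trachea replicate 1 only 1 fell, and 3 fell without foregut replicate 1 or 2 or trachea replicate 3. *Foxf1*, an HH-responsive factor of splanchnic mesoderm, was at 31.1, 43.8, 30.3 and 41.1 CPM in trachea and 41, 45.3 and 58.3 CPM in foregut and did not pass (-0.40, adjusted p = 0.141). *Foxf2* (-1.20) did not pass either.

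Anterior Hox genes were lower in mutant trachea. Only 15 of 39 Hox genes had enough counts for the test, and of these 7 fell and 1 rose, with a median of -0.66. *Hoxb1*, expressed in posterior foregut and second heart field progenitors (chromosome 11, 96365752 to 96368256, plus strand), was at 0.836, 0.214, 0.559 and 0 CPM in trachea and 8.69, 10.2 and 4.65 CPM in foregut. Trachea replicate 4 had no count for it, and the log2 fold change was -4.17 ± 0.58 (edgeR adjusted p = 0.00278). Leaving out any single library other than trachea replicate 2 or 3 left 4 of the 7. *Hoxc4* fell by 1.19 and *Hoxb4* by 0.79. *Hoxb5* (-1.62) and *Hoxa3* (-0.41) fell with calls that were lost in 4 of 7 fits each (adjusted p up to 0.095, without foregut replicate 3, and 0.0779, without foregut replicate 2). *Hoxa5*, which is required for tracheal and lung development in the mouse, was the member that rose, at 32.9, 28.6, 34.4 and 29.3 CPM in trachea and 18.8, 14.1 and 17.9 CPM in foregut (0.89, adjusted p = 0.00374).

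HH signalling is the pathway the Gli3TFlag allele represses. The ligand *Shh*, made by the epithelium, was at 13.4, 44, 11.4 and 11.9 CPM in the mutant tracheas and 55.2, 37.3 and 41.8 CPM in the mutant foreguts. Trachea replicate 2 reached the foregut range while the other tracheas lay below it, and the difference did not pass (-1.14, edgeR adjusted p = 0.116). *Ptch1*, receptor and target of the pathway, was at 214, 324, 204 and 247 CPM in trachea and 437, 467 and 389.5 CPM in foregut and fell (-0.80, adjusted p = 0.0105). *Hhip*, another target that sequesters the ligand, moved the other way, at 47.9, 42, 37.2 and 54.1 CPM in trachea and 8.34, 14.3 and 15.9 CPM in foregut (1.82 ± 0.22, adjusted p = 0.00126). In all, 6 of the 19 tested ligands, receptors and effectors rose and 2 fell, with a median of 0.10. Without any 1 of the foreguts or trachea replicate 2, 4 rose, and without trachea replicate 1 or 3, 5 rose. The lower count was 1 without foregut replicate 1 or 2 or trachea replicate 1, and 3 without trachea replicate 2 or 3.

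The coreceptors of HH ligand on the list all rose. *Cdon* was at 136, 121, 135 and 145 CPM in trachea and 52.5, 61 and 47.7 CPM in foregut (1.33 ± 0.10, edgeR adjusted p = 0.000152), *Boc* rose by 1.04 and *Gas1* by 0.82, and none of the 3 genes overlapped between the groups. *Scube2*, which helps release the ligand, rose by 1.78 at low counts, and its call was lost in 5 of 7 fits without a library (adjusted p up to 0.106, without foregut replicate 1). *Gli1*, a direct target, was at 24.9, 27.1, 31.8 and 25.6 CPM in trachea and 36.1, 34 and 32.7 CPM in foregut and did not pass (-0.32, adjusted p = 0.0859). *Smo* did not pass (0.09 ± 0.08). Of the 12 HH target genes tested 3 rose, *Hhip* and the cyclin *Ccnd1* among them, and 2 fell, *Ptch1* among them. Without any 1 of the foreguts or trachea replicate 1, 1 fell, and without trachea replicate 2, 3 fell.

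Of 23 receptors and R-spondins 7 rose and 1 fell, and of 20 antagonists and feedback genes 7 rose and 2 fell, while among 11 tested ligands *Wnt7b* rose and none fell. Without foregut replicate 2, 4 of the antagonists and feedback genes rose. Their lower count was 0 without foregut replicate 1, 1 without foregut replicate 2 or 3 or trachea replicate 1, and 4 without trachea replicate 2, where 5 rose. *Ror1*, a receptor of Wnt5a, was at 54, 53.5, 48 and 52.9 CPM in trachea and 11.6, 14.8 and 12.5 CPM in foregut (2.0 ± 0.11, edgeR adjusted p = 3.57e-05). *Rspo4*, a secreted enhancer of Wnt signalling, had 13.1, 11.6, 11.8 and 14.2 CPM in trachea and 2.19, 0.448 and 1.53 CPM in foregut (3.17, adjusted p = 0.00159). *Fzd10* and *Lgr6* rose by 1.41 and 1.42. The antagonist *Wif1* had 2.59, 3.43, 2.8 and 3.77 CPM in trachea and 0.173, 0.256 and 0.113 CPM in foregut (4.07, adjusted p = 0.000506). *Dkk2* (1.87), *Nkd1* (1.14) and *Tnfrsf19* (1.19) rose with adjusted p of 0.000218 to 0.00481. The Wnt targets *Axin2* and *Lef1* rose by 0.61 and 0.55, and these calls were lost in 5 and 4 of 7 fits without a library (adjusted p up to 0.11, without foregut replicate 1, and 0.0852, without foregut replicate 2). *Sp5*, another Wnt target, fell by 2.39 at low counts (adjusted p = 0.0186, and 0.0722 without foregut replicate 1). *Wnt2* (-0.65) and *Wnt2b* (0.72), ligands of the early lung mesoderm, did not pass.

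Among 27 BMP genes 5 rose and none fell, and 8 rose without trachea replicate 3. *Bmp3*, a ligand that opposes other BMPs, was at 43.3, 37.4, 44.7 and 38.6 CPM in trachea and 5.93, 3.77 and 7.6 CPM in foregut (2.82 ± 0.21, edgeR adjusted p = 0.000137). *Bmper*, an extracellular BMP modulator needed for tracheal cartilage in the mouse, had 40.2, 16.8, 29.8 and 30.3 CPM in trachea and 9.55, 9.65 and 9.53 CPM in foregut (1.61, adjusted p = 0.00452). The receptor *Bmpr2* rose by 0.60 and *Bmp5* by 0.89 (0.0606 without foregut replicate 2). *Bmp4*, a mesodermal inducer of respiratory fate, was at 129, 117, 108 and 96.6 CPM in trachea and 126, 177 and 83.6 CPM in foregut and did not pass (-0.19, against 0.11 without foregut replicate 2).

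Retinoic acid genes tended the other way, with 5 of 17 members lower and 1 higher, and 3 lower when foregut replicate 2 or 3 or trachea replicate 3 or 4 was left out. The cellular retinoid carriers *Crabp2* and *Crabp1* fell by 0.99 and 0.64. *Crabp2* was at 44.7, 49.2, 65.8 and 36 CPM in trachea and 98.3, 99 and 95.2 CPM in foregut (edgeR adjusted p = 0.00611), and the call of *Crabp1* was lost in 5 of 7 fits without a library (up to 0.0734, without foregut replicate 3). *Aldh1a1*, a retinoic acid synthesising enzyme, was at 3.73, 5.35, 2.36 and 2.33 CPM in trachea and 24, 110.2 and 14 CPM in foregut (-3.82, adjusted p = 0.00741). Foregut replicate 2 carried most of that mean, but the other foreguts were also above all tracheas. *Aldh1a2*, the main mesodermal enzyme, did not pass (0.43).

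Of 26 cartilage genes on the list 13 had enough counts for the test, of which 2 rose and 1 fell (2 without foregut replicate 3), with a median of -0.30. In the control tissues 5 of 12 rose and 2 fell, with a median of 0.61. *Runx2*, a skeletal transcription factor (chromosome 17, 44495987 to 44814797, minus strand), was at 78.2, 71.3, 56.5 and 53 CPM in the mutant tracheas and 10.9, 6.78 and 12 CPM in the mutant foreguts (2.70 ± 0.22, edgeR adjusted p = 0.000161). *Col11a1* rose by 0.52. *Col2a1*, the main cartilage collagen, was lower in mutant trachea, at 84.2, 123, 101 and 103 CPM against 189, 242 and 159.7 CPM in foregut (-0.94, adjusted p = 0.00588), and it fell by 0.90 in the control tissues as well (adjusted p = 0.0212). *Sox9*, the chondrogenic transcription factor, was at 64.2, 48, 42.3 and 61.7 CPM in trachea and 43.7, 85.3 and 45 CPM in foregut, and its sign depended on foregut replicate 2 (-0.10 with it and 0.29 without it). In the control libraries *Sox9* rose by 0.81 (adjusted p = 0.00199), but the difference between the genotypes did not pass (-0.91 ± 0.30, adjusted p = 0.218). The differentiated cartilage genes *Acan* and *Comp* had at most 6 and 7 counts in any of the 7 libraries, and *Matn1* had 0.

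Most macrophage markers rose. Of 18 members tested 13 rose and none fell, with a median of 1.38. Leaving out foregut replicate 1 or foregut replicate 2 left 7 of them, and leaving out trachea replicate 1 left 8. The control tissues gave 11 of 15 tested members higher and none lower, with a median of 1.55. *Csf1r*, the receptor on which macrophages depend, was at 18.4, 15.3, 12.9 and 22.2 CPM in the mutant tracheas and 5.64, 6.65 and 6.87 CPM in the mutant foreguts (1.42 ± 0.21, edgeR adjusted p = 0.00318). *Adgre1*, which encodes F4/80, had 4.11, 2.71, 2.98 and 2.66 CPM in trachea and 0.518, 0.767 and 0.454 CPM in foregut (2.42, adjusted p = 0.00339). *Cx3cr1*, *C1qb*, *Mrc1* and *F13a1* rose by 1.74, 1.63, 1.35 and 2.07, without overlap between the groups. The summed CPM of the list was 130 to 173 in the tracheas and 72.3 to 87.8 in the foreguts. Red blood cell markers did not show such a shift, with a summed CPM of 9179 to 32191 in the tracheas and 13029 to 20905 in the foreguts and 1 of 22 members higher (5 without trachea replicate 2 and 0 without any other).  Of 11 pericyte genes 4 rose and 1 fell: *Kcnj8* (2.63) and *Pdgfrb* (0.68) were among those that rose (2 rose without foregut replicate 1), and *Rgs5* fell, at 23.9, 19.9, 32.1 and 28.8 CPM in trachea and 199.6, 741 and 87.9 CPM in foregut (-3.71, adjusted p = 0.00504). Foregut replicate 2 carried most of the *Rgs5* foregut mean, but the other foreguts were also above all tracheas. With replicate 2 of both tissues left out its log2 fold change was -2.35. Between the control tissues *Rgs5* differed by 0.09 (edgeR adjusted p = 0.928).

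**Figure D4:**
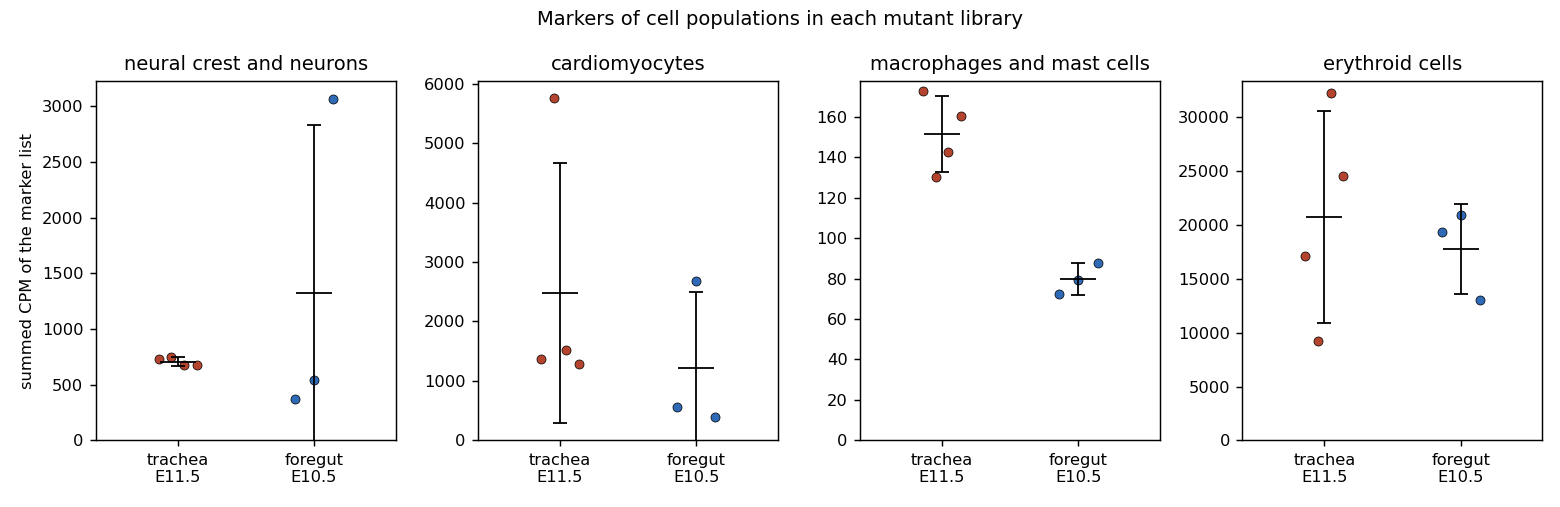
Summed CPM of 4 marker lists in each mutant library, with E11.5 tracheas (red, n = 4) left of E10.5 foreguts (blue, n = 3) and mean and SD. Macrophage sums of 130 to 173 in trachea lie above all foregut sums. Foregut replicate 3 (3062) stands apart for neural markers, and replicate 2 of each tissue (5752 in trachea and 2682 in foregut) for cardiomyocyte markers.

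Several of the largest falls in the ranking, neuronal genes among them, were highest in foregut replicate 3. *St18* was at 0.456, 0.571, 0.249 and 0.554 CPM in trachea and 0.691, 0.639 and 53.5 CPM in foregut, and *Gng3* at 2.89, 2.93, 1.93 and 2.22 CPM in trachea and 5.7, 6.58 and 60.6 CPM in foregut. *Draxin* and *Mreg* were at 3.5, 3.36, 3.85 and 3.33 CPM and 2.13, 3.5, 2.67 and 4.32 CPM in the tracheas, and at 8.34, 9.46 and 57.9 CPM and 6.27, 7.42 and 44.1 CPM in the foreguts. Without foregut replicate 3, *Gng3*, *Draxin* and *Mreg* still passed (log2 fold changes of -1.30, -1.34 and -1.13, edgeR adjusted p of 0.0204, 0.00595 and 0.0488), and *St18* was not tested. The calls of all 4 genes were lost without trachea replicate 1 (edgeR adjusted p between 0.0577 and 0.109). The pan-neuronal markers *Tubb3* (3.34, 9.85 and 258 CPM in foregut) and *Elavl3* (1.09, 3.32 and 69.6 CPM in foregut) did not pass, and *Tubb3* changed sign without foregut replicate 3 (0.25). Over the 29 neural crest and neuronal genes tested 4 fell, *Isl1* and *Hand2* among them, and 3 rose. Without foregut replicate 3, 3 fell and 7 rose, without foregut replicate 1, 9 fell, and without trachea replicate 1, 2 or 3, 2 fell. *Chrnb4*, a nicotinic receptor subunit, was also above every trachea in the other foreguts, at 2.97, 4.07, 4.16 and 3.77 CPM in trachea and 9.96, 18.5 and 42.1 CPM in foregut (-2.65, adjusted p = 0.00465). The members that rose were more even among the libraries. The neuropeptide gene *Gal* was at 55.4, 28, 58.8 and 50.7 CPM in trachea and 8.34, 4.67 and 11.1 CPM in foregut (2.58, adjusted p = 0.00158), and the endothelin receptors *Ednra* and *Ednrb* rose by 1.47 and 1.39.

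Heart muscle genes varied widely between libraries of the same tissue. *Myh6*, the atrial myosin heavy chain, was at 76.3, 636, 142 and 125 CPM in trachea and 18.4, 59.5 and 6.07 CPM in foregut, and its call (log2 fold change 3.14, edgeR adjusted p = 0.0492) was lost in 6 of 7 fits without a library (up to 0.153, without foregut replicate 1). In the deposited TPM the *Myh6* groups overlapped, at 32.5, 308, 74.4 and 35.2 in trachea and 4.77, 110.6 and 2.62 in foregut. The reason for this disparity between CPM and TPM was not tested. *Nppa* and *Ryr2* rose by 4.75 and 1.77. *Nppa* was at 0.608, 11.9, 2.05 and 1.11 CPM in trachea, so its mean rested chiefly on trachea replicate 2. It was tested in only 4 of the fits without a library. Its call was lost in 3 of them, each without a foregut (edgeR adjusted p of 0.0718 to 0.102). The call of *Ryr2* was lost without foregut replicate 1 (adjusted p = 0.0695). *Tnnt2* did not pass (1.15). Of 22 heart muscle genes 3 rose, without foregut replicate 1 none did, and 1 did without foregut replicate 3 or trachea replicate 2, 3 or 4. With replicate 2 of both tissues left out, the libraries rich in heart muscle RNA, 9 rose.

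Genes of DNA replication and mitosis mostly did not pass, and most of those that did were lower. Of 37 replication genes 8 fell and none rose, with a median of -0.16, but none fell without foregut replicate 1 and 1 without foregut replicate 2. Trachea replicate 1 and trachea replicate 2 left 3 and 5 when they were left out. Of 30 mitotic genes 7 fell and 1 rose, and 3 fell without foregut replicate 1 or 2 and 4 without trachea replicate 1. *Birc5*, survivin, was at 42.4, 41.8, 51.8 and 34.9 CPM in trachea and 66.8, 68.8 and 68.7 CPM in foregut (-0.67, edgeR adjusted p = 0.00834), and the kinase *Plk1* fell by 0.42. *E2f1* fell by 0.57, with a call lost in 5 of 7 fits without a library (adjusted p up to 0.0856, without foregut replicate 2). Of 22 cyclin, Myc and CDK inhibitor genes tested 7 rose and 1 fell, with a median of 0.08. When 1 library was left out, 5 or 6 rose and 0 or 1 fell. Among cyclins and inhibitors, *Cdkn1c* (p57) was at 462, 440.5, 565 and 451 CPM in trachea and 295, 298 and 275 CPM in foregut (0.73, adjusted p = 0.00291), and *Rbl2*, a retinoblastoma relative, rose by 0.91. *Ccnd1* and *Cdk6*, which drive entry into the cell cycle, rose by 0.51 and 0.60. *Cdkn1a* (p21) fell by 1.64 (adjusted p = 0.0198, and 0.0614 without trachea replicate 1).

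The remaining genes with the largest differences included *Nfix*, a nuclear factor I gene that promotes late differentiation (chromosome 8, 84699876 to 84800344, minus strand). It was at 38.2, 32.4, 23.6 and 26.2 CPM in trachea and 0.748, 1.28 and 1.3 CPM in foregut, a rise of 4.75 ± 0.26 (edgeR adjusted p = 3.57e-05). *Arg1*, the arginine-degrading enzyme arginase (chromosome 10, 24915221 to 24927484, minus strand), was at 1.98, 3, 1.93 and 2.11 CPM in trachea and 62.1, 46.8 and 40.6 CPM in foregut. It fell by 4.46 on the log2 scale, with a standard error of 0.21, and its adjusted p equalled that of *Lin28a* (1.8e-05). *Gata3*, a transcription factor, was at 3.12, 4.78, 1.62 and 3.44 CPM in trachea and 19.3, 34.8 and 8 CPM in foregut (-2.68, adjusted p = 0.00789). The pharyngeal regulators *Eya1* and *Tbx1* fell by 1.62 and 1.23, the second lost without foregut replicate 1 (adjusted p = 0.0577). Only 6 of 13 pharynx and thyroid genes had enough counts for the test, of which 2 fell and 4 did not pass. Of these 6 genes 1 fell without foregut replicate 1, and 3 fell without foregut replicate 3 or trachea replicate 2. *Hmga1b*, a near-identical copy of *Hmga1*, had 0.532, 0, 0.559 and 0 CPM in trachea and 3.05, 289 and 279 CPM in foregut, while *Hmga1* had 543 CPM in foregut replicate 1 and 260 and 276 CPM in the others. Summed over both copies the values were 287, 295, 272 and 203 CPM in trachea and 546, 549 and 555 CPM in foregut, with every trachea below every foregut. The split of reads between these copies is uncertain, so neither the fall of *Hmga1b* nor the missed threshold of *Hmga1* is read for a single copy.

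The control libraries, which share no library with the mutant comparison, gave 979 genes at least 2-fold higher (6.42%) and 240 at least 2-fold lower (1.57%) in control trachea than in control foregut. Of the 446 genes higher in mutant trachea 390 were tested in the controls, where 380 had the same sign and 249 were also called, 55.8% of the mutant list and 25.4% of the control list. Of the 204 lower genes 189 were tested, 177 had the same sign and 88 were also called, 43.1% of the mutant list and 36.7% of the control list. *Runx2* rose by 2.70 between the mutant tissues and by 2.13 between the control tissues, and *Tbx5* by 2.14 and 1.5. The difference between genotypes was tested directly across all 13 libraries, and 4 of 16132 genes (0.0248%) passed. Before adjustment 2294 genes had an edgeR p under 0.05 in that test, where 806.6 would be expected by chance. A gene that did not pass is therefore not shown to be alike in the 2 genotypes.

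In each of these 4 genes mutant trachea averaged more than control trachea. *Dock5*, a guanine exchange factor for Rac (chromosome 14, 67752135 to 67933442, minus strand), averaged 60.7 ± 10.7 CPM in mutant trachea and 17.9 ± 3.94 in mutant foregut (SD, n = 4 and 3), and 16.9 ± 3.95 in control trachea and 17.6 ± 0.70 in control foregut (SD, n = 3 each). The interaction was 1.81 ± 0.26 (edgeR adjusted p = 0.0307). *Itga9*, an integrin subunit, averaged 158 ± 10.6 CPM in mutant trachea and 107 ± 4.33 in mutant foregut, and 77.5 ± 4.37 in control trachea and 109 ± 15.9 in control foregut (interaction 1.06, adjusted p = 0.0205). *Grem1*, a BMP antagonist (chromosome 2, 113746164 to 113758646, minus strand), averaged 6.28 ± 1.39 CPM in mutant trachea and 7.54 ± 0.43 in mutant foregut, and 0.61 ± 0.39 in control trachea and 6.86 ± 1.74 in control foregut (interaction 3.25, adjusted p = 0.0307). The fourth, *Pkdcc*, a secreted tyrosine kinase of the developing skeleton, averaged 27.5 ± 2.71 CPM in mutant trachea and 19.2 ± 2.73 in mutant foregut, and 17.8 ± 0.36 in control trachea and 34.0 ± 3.62 in control foregut (interaction 1.45, adjusted p = 0.0181). The number of genes that passed was unstable, with 633 without control trachea replicate 1, 0 without control trachea replicate 2, 1 without mutant foregut replicate 1 or without mutant trachea replicate 1 or 4, 2 without control foregut replicate 2 or 3 or mutant trachea replicate 2, and 11 without mutant foregut replicate 3. Several genes of the report that differed little between the control tissues did not pass this test, among them *Msx2* (interaction 1.80, adjusted p = 0.0751), *Hhip* (1.41, 0.141) and *Isl1* (-1.64, 0.142). *Rgs5*, which differed by 0.09 between the control tissues, did not pass either (interaction -3.80 ± 0.95).

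**Figure D5:**
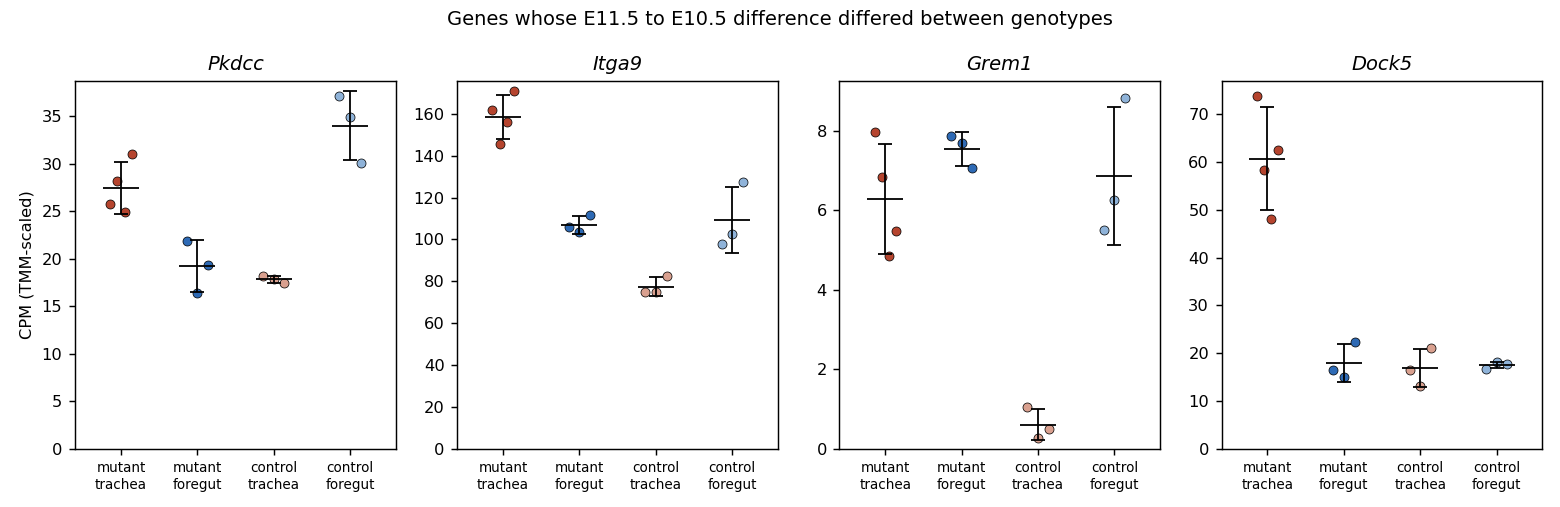
TMM-scaled CPM of the 4 genes that passed the test of a difference between genotypes, in mutant trachea (n = 4), mutant foregut, control trachea and control foregut (n = 3 each), with mean and SD. Mutant tracheas reach 48.0 to 73.9 CPM for *Dock5*, above the other 9 libraries, and control tracheas fall to at most 1.04 CPM for *Grem1*.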

How the data were processed

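Total RNA of dissected trachea (E11.5) and foregut (E10.5) was amplified with a kit that does not mark strand (Ovation RNA-Seq v2 with Nextera XT) and sequenced as single-end reads. The submitters' processing notes name RSEM 1.3.0, Bowtie2, BBDuk and FastQC within CSBB 3.0, and the build mm10, and no source used here names the annotation. The authors deposited RSEM estimated counts and TPM for 32793 genes, 1 table per stage. Estimated counts were rounded to whole numbers. Genes were kept by filterByExpr, scaled by TMM and tested by quasi-likelihood in edgeR 4.0.16 (R 4.3.3), with p-values adjusted by Benjamini and Hochberg across every tested gene. Only the 7 mutant libraries entered the main comparison, the 6 control libraries were fitted alike, and all 13 gave the interaction of stage and genotype. limma 3.58.1 on voom weights or on log2 of the deposited TPM, and DESeq2 1.42.0, were alternatives.

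Tested on simulated counts for the same comparison (15311 genes), 60.6% of 99 genes changed by 1 log2 unit and 81.6% of 98 changed by 2 were called, with 9 of 149 calls false. The methods describe 3 embryo dissections per condition, whereas the labels give 4 mutant tracheas and 3 mutant foreguts. All were used, and whether the 4 tracheas are 4 separate dissections is not stated. Depth is the total estimated count, 9646700 to 17023900 per library. The 4 most abundant genes took 20.0% to 22.8% of it in the mutant foreguts and 19.7% to 27.6% in the mutant tracheas. Of the 7 mutant libraries, trachea replicate 4 had the highest such share, the lowest depth and the fewest genes with counts (18236). By rule, the genes named were *Gli3*, the 12 largest changes in each direction among genes with no overlap between the groups, a mean log2 CPM no lower than 3 and an adjusted p of at most 0.05, members of the lists, and genes called in the interaction test. The members and gene lists were chosen with earlier results of these data known. Coordinates are from GENCODE M21, with which all 163 named genes matched, and 50 of them overlap exons of a gene on the other strand, among them *Lin28a*, *Trim71*, *Sall4*, *Gli3*, *Hoxb5*, *Runx2*, *Nfix* and *Wnt7b*. Since the counting was not stranded, reads of such genes and their antisense partners cannot be told apart. Replicate numbers did not pair the libraries, with correlations of -0.10, 0.05 and -0.08 between same-numbered deviations.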

Additional observations from a re-analysis of the deposited data

Results flagged for a closer look

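Among 163 genes examined, 11 had 1 mutant trachea far from the other 3, by Dixon's criterion, which chance meets in about 1 in 20 groups. In 8 of them it was trachea replicate 2, with 636 CPM for *Myh6*, 11.9 for *Nppa*, 105 for *Ryr2*, 322 for *Tnnt2*, 44.0 for *Shh*, 75.8 for *Epcam*, 25.7 for *Dkk2* and 3.0 for *Arg1*. The first 4 are heart muscle genes, and that library had the highest summed heart muscle CPM (5752). Trachea replicate 4 stood apart for *Hoxb4* (26.8 CPM) and *Npnt* (59.0 CPM), and trachea replicate 3 for *Cdkn1c* (565 CPM).

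The trachea over foregut difference of 4 genes differed between mutant and control libraries by the edgeR interaction test. On the log2 scale the mutant difference minus the control difference was 1.45 for *Pkdcc*, 1.06 for *Itga9*, 3.25 for *Grem1* and 1.81 for *Dock5*. Of 13 fits that each left out a library, *Pkdcc* passed in 12, *Itga9* in 8, and *Grem1* and *Dock5* in 4 each.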

How the results depend on the processing

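Counts of changed genes moved with the threshold and the model. The 446 genes higher in mutant trachea became 229 at an adjusted p of at most 0.01, 1177 without a fold limit and 245 with limma on log2(TPM + 1), and the 204 lower genes became 80, 883 and 116. The lower count was also 127 with at least 10 counts in every library and 334 with edgeR's likelihood ratio test. With the replicate number as a block the counts were 316 and 122, which is not read as a weaker effect since the numbers did not pair the samples, and 8 heart muscle genes rose. Leaving out 1 library gave 280 to 451 higher and 129 to 227 lower genes. DESeq2 gave 530 and 242, sharing 444 and 194 genes with the edgeR calls. The 4 interaction genes became 272 with DESeq2, 184 with the likelihood ratio test, 10 with no filter on low counts, 10 and 7 with limma on log2(TPM + 1) and log2(TPM + 0.1), 2 with limma-voom, 0 with the block, and 0 to 633 when a library was left out. Scaling moved the median of all genes by at most 0.0722 in size. The log2 fold change crossed 0 for 3 genes that did not pass. Without 1 library it ranged from -0.42 to 0.11 for *Bmp4*, -0.27 to 0.29 for *Sox9* and -4.09 to 0.25 for *Tubb3*, the high ends being without foregut replicate 2 for the first pair and without foregut replicate 3 for *Tubb3*, and without replicate 2 of both tissues it was 0.092 for *Bmp4* and 0.33 for *Sox9*. For single genes, 2291 of the values under other settings kept their direction and side of the threshold, 95 lost the call, 23 gained it and 2 changed sign. The causes were not tested. With 3 or 4 libraries a group, genes at a few counts per library are weakly measured.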

Other observations

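Single genes of groups outside the airway lists also differed between the mutant tissues. The imprinted receptor *Igf2r*, which clears Igf2, was at 823, 852, 774 and 965 CPM in the mutant tracheas and 389, 631 and 340 CPM in the mutant foreguts (log2 fold change 0.91, edgeR adjusted p = 0.0167, and 0.0713 without foregut replicate 1). *Magel2*, another imprinted gene, fell by 2.05 (adjusted p = 0.00289). Of 28 imprinted genes 6 rose and 1 fell, but 2 rose without foregut replicate 1 and 3 without trachea replicate 1. *Notch2* was at 256, 253, 238 and 278 CPM in trachea and 109, 131 and 128 CPM in foregut (1.07, adjusted p = 0.000229). Of 17 Notch pathway genes tested 2 rose and none fell, with a median of 0.03. Only 1 rose without foregut replicate 1 or any 1 of the tracheas. The homeobox genes *Msx2* and *Alx4*, known for roles in limb and skull patterning, rose by 1.96 and 1.74, the first at 65.0, 52.8, 53.6 and 56.7 CPM in trachea and 15.0, 19.8 and 9.25 CPM in foregut. Of 21 Iroquois, craniofacial and limb homeobox genes tested 2 rose and 1 fell, with a median of 0.06. These counts were not far from the shares of all genes, 7.58% higher and 5.69% lower. *Egln3*, a hypoxia-induced prolyl hydroxylase, rose by 1.3. Of 27 glycolysis and hypoxia genes tested 5 rose and 1 fell, with a median of 0.20. Ribosomal protein genes had 5 of 36 members lower, but 29 without trachea replicate 3 and 0 or 1 without any other single library.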
